A study of Mus musculus with 2 samples.

Results

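The 7 genes described here encode surface proteins that act when mononuclear phagocytes meet and fuse: the fusion receptors Dcstamp and Ocstamp, the adhesion receptor Cd44, the ligand Cd47 with its receptor Sirpa, and the ligand Cd200 with its receptor Cd200r1. They were read from 17 Affymetrix probe sets that carry 1 of these symbols and no other, of 45037 probe sets and 18193 genes on the arrays, and every member had at least 1 such probe set. Osteoclasts and macrophages were profiled on 1 array each. Bone marrow cells of C57/Black6 mice aged 8 weeks were first grown for 3 days in M-CSF, a growth factor of the macrophage lineage, and the cells that adhered then received M-CSF plus RANKL (the osteoclast-inducing cytokine) for the osteoclast array, or M-CSF alone for the macrophage array. The sample labels give 6 days of culture for both. M-CSF was thus present in both groups, and the labels do not say how many animals or wells were pooled, whether both arrays came from the same animals, or what share of the RANKL culture had fused. The genes were chosen with their values in this same comparison known, so the differences below are descriptions, and with 1 array in each group no test could be made.

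Osteoclasts form by fusion of mononuclear precursors that share their origin with macrophages. DC-STAMP and OC-STAMP are membrane proteins that cross the membrane several times, and in mice precursors lacking either of them stay mononuclear. CD47 is a broadly expressed surface protein that binds SIRPa on phagocytes, which recruits the phosphatases SHP-1 and SHP-2 to restrain uptake, and both have been linked to macrophage fusion. CD200 engages CD200R1, an inhibitory receptor of myeloid cells, and CD44 binds hyaluronan and osteopontin.

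Values are the deposited intensities, on a linear scale. The osteoclast array was dimmer: over the 23708 probe sets measured in both arrays the median log2 difference, osteoclasts minus macrophages, was -0.43. Differences are therefore given relative to this shift unless called deposited. For a probe set measured in both arrays, adding -0.43 turns such a value into the deposited one, which is printed for the brightest probe set of each member and elsewhere where counts change. A gene was read from its brightest probe set. It counted as measured when that probe set was above the 40th percentile (14.4 in osteoclasts, 17.0 in macrophages) in at least 1 array. Of 13647 such genes, 11469 were measured in both arrays. For the others the value below this floor was raised to it, which makes the difference a bound. A second level, the 95th percentile of 80 probe sets for olfactory or vomeronasal receptors (25.7 in osteoclasts, 28.2 in macrophages), marks signals that resemble background. At this level and at the floor the arrays differed by less than the shift. Subtracting the shift can thus overstate how far a gene is higher in osteoclasts where its macrophage value is near background. The only error these data hold is the spread between probe sets of 1 gene. Its log2 SD, for 1 probe set about its gene's mean, was 0.49 (14641 probe sets, 5435 genes). It contains no variation between cultures or animals. Since these are bulk cultures, more expressing cells and more RNA per cell cannot be told apart.

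Defining markers fitted the labels of the arrays. All 8 osteoclast markers, Acp5 and Ctsk among them, were higher in osteoclasts by 2-fold or more once the shift was taken off (summed intensity 26980 in osteoclasts, 1096 in macrophages), and 6 of 8 macrophage markers were at least 2-fold lower (17710 in osteoclasts, 48930 in macrophages). Granulocyte markers moved with the comparison too: 8 of 9 exceeded 2-fold towards osteoclasts relative to the shift, and 5 of 9 as deposited, with sums of 6092 in osteoclasts and 3241 in macrophages and 7 of 9 above the floor in macrophages, and their part in the values below was not tested. Other lists gave lower sums in osteoclasts. Dendritic cell markers summed to 83.6 in osteoclasts and 186 in macrophages, mast cell markers to 25.01 in osteoclasts and 49.7 in macrophages, and markers of stromal cells and osteoblasts to 5977 in osteoclasts and 11850 in macrophages. The stromal genes went both ways: relative to the shift 1 of 5 was at least 2-fold higher (Dcn, 37.0 in osteoclasts and 15.3, below the floor, in macrophages) and 0 were 2-fold lower, against 1 and 2 as deposited. The collagen genes Col1a1 (1381 in osteoclasts, 2078 in macrophages) and Col1a2 (2895 in osteoclasts, 5744 in macrophages) made up most of the stromal sum, and probe sets of Sparc ran from -0.84 to 1.23 and of Col1a1 from -0.16 to 0.77. The part of these cells in the values below was not tested either. The female-specific RNA Xist gave 22.1 in osteoclasts and 1872 in macrophages, and the Y-linked gene Eif2s3y gave 321 in osteoclasts and 0.571 in macrophages. The osteoclast array thus read as male and the macrophage array as female, so they did not come from the same animals. Differences between the source animals, sex among them, and the effect of RANKL cannot be told apart. None of the 7 genes lies on the X or Y chromosome in RefSeq's mouse gene table.

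Of the 7 genes, Dcstamp, Ocstamp and Cd200 were far higher in osteoclasts, Sirpa and Cd200r1 were lower by about the 2-fold mark, and Cd44 and Cd47 lay close to the shift. Counted from the brightest probe sets, 3 members exceeded 2-fold towards osteoclasts relative to the shift, where 7.11% of the 13647 measured genes were, and 1 was at least 2-fold lower, where 6.99% were. The same 3 were at least 4-fold higher (1.34% of all measured genes), and 0 were 4-fold lower (0.923%). On the deposited scale 3 were at least 2-fold higher (3% of all) and 2 at least 2-fold lower (17.5%). As the members were picked on this contrast, nothing is read from these shares. The median difference over the members was -0.02, against 0.00 over all measured genes, and describes neither the high nor the low members.

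**Figure D1:**
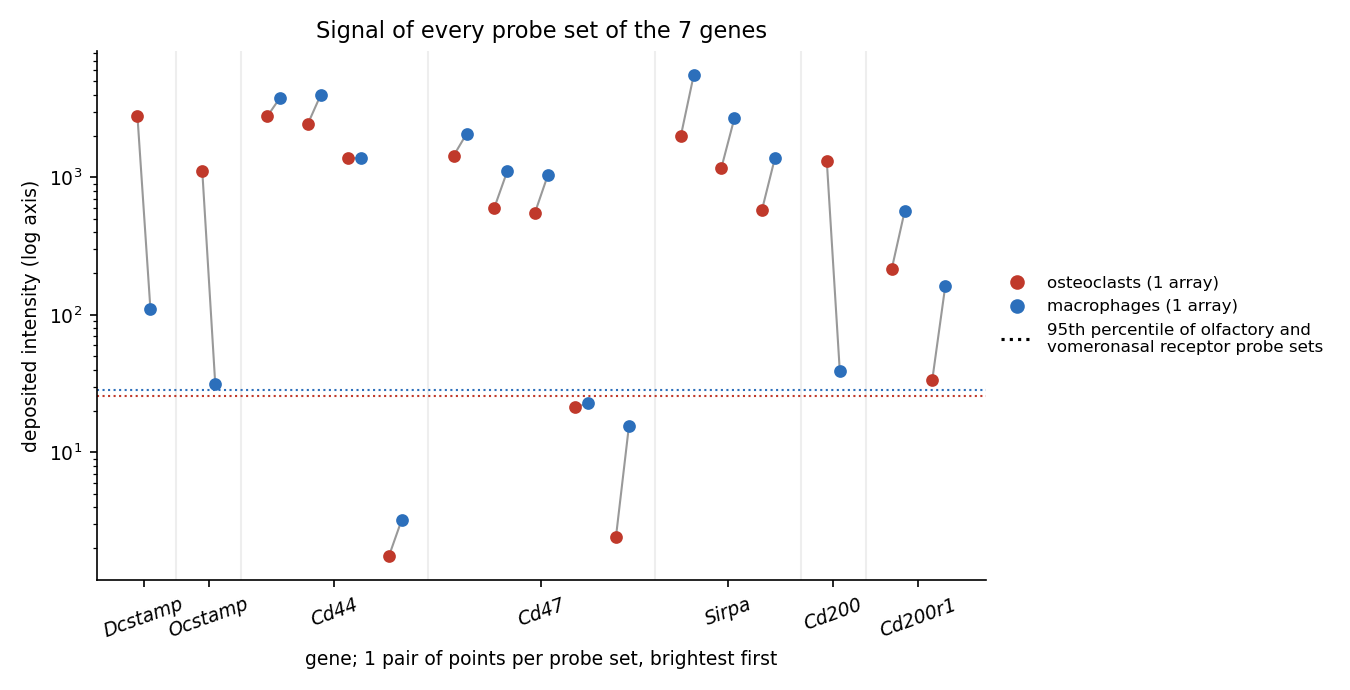
Deposited intensity (log axis) of each of the 17 probe sets in osteoclasts (red, left point of a pair) and macrophages (blue, right point), 1 array each; dotted lines are the 95th percentiles of receptor probe sets, 25.7 in osteoclasts and 28.2 in macrophages. Dcstamp, Ocstamp and Cd200 stand between 1108 and 2813 in osteoclasts and between 31.2 and 111 in macrophages, while every probe set of Sirpa and Cd200r1 is lower in osteoclasts.

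Dcstamp, the fusion receptor first described in dendritic cells, gave an intensity of 2813 in osteoclasts and 111 in macrophages. The difference was 5.10 on the log2 scale relative to the shift, 34.3 times as high, and 4.67 (25.4 times as high) as deposited. Its macrophage signal was well over the receptor probe sets, so the ratio rests on a measured value in each array.

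Ocstamp, the second of the fusion receptors, gave 1108 in osteoclasts and 31.2 in macrophages. The difference was 5.58 relative to the shift, 48.0 times as high, and 5.15 as deposited. The macrophage signal stood only just over the 28.2 of the receptor probe sets, so the size of this ratio depends on a value near background. Dcstamp and Ocstamp differed from each other by 0.48 in their log2 differences (Dcstamp minus Ocstamp, -0.48), which is less than the 0.49 between probe sets of a single gene.

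Cd200, the ligand of the pair with Cd200r1, moved with the fusion receptors. It gave 1312 in osteoclasts and 39.1 in macrophages, a difference of 5.50 relative to the shift (45.3 times as high) and of 5.07 as deposited. CD200 is also carried by lymphocytes, endothelial cells and other cells outside the phagocyte lineage, and their markers were read in the same arrays. Of 4 B lymphocyte markers with a probe set, 1 was above the floor in osteoclasts and 2 in macrophages, and their summed intensity was 49.5 in osteoclasts and 118.8 in macrophages. Of 6 markers of T and NK lymphocytes 1 was above the floor in each array (sums of 55.9 in osteoclasts and 81.5 in macrophages), and of 5 endothelial markers 2 were above it in osteoclasts and 1 in macrophages (sums of 104.2 in osteoclasts and 105.9 in macrophages). No marker was listed at 0. These sums are on the deposited scale. Relative to the shift the median of the 2 measured endothelial markers was 0.64, and 1 of them, Cdh5, was over 2-fold higher (26.9 in osteoclasts and 10.8, below the floor, in macrophages). The part of lymphocytes and endothelial cells in the Cd200 signal was not tested.

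Among all 13647 measured genes ordered by difference, Ocstamp stood at rank 8 from the highest, Cd200 at rank 9 and Dcstamp at rank 14. The central 90% of genes lay between -1.16 and 1.17. Each of these 3 members has a single probe set, so their values have no second probe set to be set beside. By nearness of the log2 difference over the 2 arrays, the closest genes to Dcstamp were Oscar (5.08), an osteoclast immunoglobulin-like receptor, Fxyd2 (5.17), a regulator of the sodium pump, and Bdh1 (5.18), a ketone body enzyme. Ocstamp and Cd200 had each other as nearest gene, at a distance of 0.08, and the cytochrome P450 gene Cyp2s1 (5.68) and the kinase anchor gene Akap6 (5.38) were the next genes of both. In macrophages Oscar (24.99), Fxyd2 (20.1), Cyp2s1 (26.5) and Akap6 (14.8) were under the receptor level of 28.2, so these distances have little resolution.

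**Figure D2:**
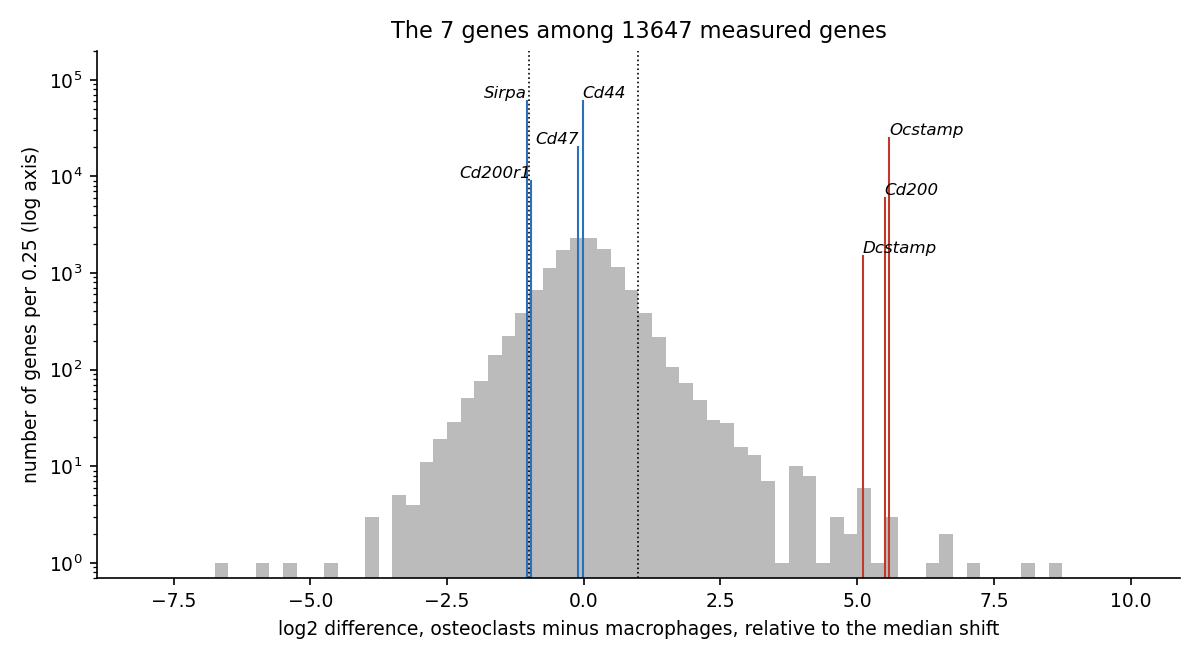
Histogram of the log2 difference, osteoclasts minus macrophages relative to the median shift, over 13647 measured genes (grey; gene number on a log axis), with the 7 genes as vertical lines (red over 1, blue otherwise) and dotted lines at 2-fold. Ocstamp (5.58), Cd200 (5.50) and Dcstamp (5.10) stand in the far right tail, Sirpa (-1.05) and Cd200r1 (-0.97) at the lower 2-fold line, and Cd47 (-0.10) and Cd44 (-0.02) at the centre.

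Cd200r1, which encodes the inhibitory receptor for CD200, went the other way from its ligand. Its brighter probe set gave 215 in osteoclasts and 568 in macrophages, -0.97 relative to the shift and -1.40 as deposited. The dimmer probe set gave 33.5 in osteoclasts and 161 in macrophages, -1.83 relative to the shift and -2.26 as deposited. Both were lower in osteoclasts on either scale, and they lay 0.86 apart. The general probe set SD is for 1 probe set about its gene's mean, so this gap cannot be judged by it. Whether Cd200r1 passed 2-fold thus depended on the probe set and the scale: the brighter passed it only as deposited, the dimmer on both. Between the partners, the log2 difference of Cd200 exceeded that of Cd200r1 by 6.47.

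Cd200r1 belongs to a family with paired activating members, of which Cd200r4 gave 145 in osteoclasts and 213 in macrophages (-0.13 relative to the shift) and Cd200r3 was below the floor in both arrays. Cd200r4 and Cd200r2 are its neighbours in RefSeq's mouse gene table, and Cd200r2 was not analysed here. CD200R1 acts through the adaptors Dok2 and Dok1 and the Ras inhibitor RasGAP. Dok2 gave 196 in osteoclasts and 793 in macrophages, a difference of -1.59. Rasa1, which encodes RasGAP, gave 601 in osteoclasts and 1800 in macrophages (-1.15), and its 3 probe sets lay between -1.15 and -1.02. The lipid phosphatase gene Inpp5d (SHIP-1) was at -0.95, with 475 in osteoclasts and 1239 in macrophages. Dok1 lay near the shift, at -0.15. Across the 5 measured genes of this list 0 were 2-fold higher and 2 were 2-fold lower, with a median of -0.95, against 0.00 over all measured genes. As deposited 3 were 2-fold lower, with a median of -1.38, against -0.43 over all measured genes.

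Sirpa, the phagocyte receptor for CD47, was lower in osteoclasts in each of its 3 probe sets. The brightest gave 2003 in osteoclasts and 5580 in macrophages, -1.05 relative to the shift and -1.48 as deposited. The other probe sets gave 1174 in osteoclasts and 2686 in macrophages (-0.76, or -1.19 as deposited), and 578 in osteoclasts and 1381 in macrophages (-0.82, or -1.26 as deposited). The 3 probe sets averaged -0.88 ± 0.15 (SD over 3 probe sets). As deposited all 3 passed 2-fold. Relative to the shift only the brightest did, so that the single call of a lower member rests on the choice of probe set. Of all measured genes, 6.39% lay below Sirpa and 7.44% below Cd200r1.

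Cd47 was read by 5 probe sets, of which 3 were bright. They gave 1442 in osteoclasts and 2085 in macrophages (-0.10 relative to the shift), 601 in osteoclasts and 1109 in macrophages (-0.45), and 551 in osteoclasts and 1037 in macrophages (-0.48). All 3 were lower in osteoclasts on the deposited scale too, by values between -0.91 and -0.53, and none reached 2-fold on either scale. They averaged -0.34 ± 0.21 (SD over 3 probe sets), and each differed from the shift by less than the general SD of 1 probe set, 0.49. Of the dim ones, the brighter, at 21.3 in osteoclasts and 22.7 in macrophages, was in the range of the receptor probe sets, and the other was below the floor in both arrays. The log2 difference of Cd47 exceeded that of Sirpa by 0.95 by their brightest probe sets, and every bright probe set of Cd47 lay above every probe set of Sirpa.

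Partners of CD47 and SIRPa were read from a list of 11 genes, of which 9 had a probe set and all 9 were measured. Relative to the shift 1 was higher and 2 were lower by 2-fold or more, with a median of -0.09, against 0.00 over all measured genes. As deposited 1 was higher and 3 were lower, with a median of -0.52, against -0.43 over all measured genes. The higher gene was Itgb3, the integrin chain of the vitronectin receptor that associates with CD47, with 590 in osteoclasts and 46.1 in macrophages (4.11, and 2.67 by its other probe set). Thbs1, which encodes the CD47 ligand thrombospondin 1, gave 1163 in osteoclasts and 3390 in macrophages (-1.11, and -0.46 by its other probe set). Fyb, an adaptor found with SIRPa in macrophages, gave 594 in osteoclasts and 2845 in macrophages (-1.83, and -1.34 by its other probe set). The phosphatases that SIRPa recruits, named here after their values were seen, lay at the shift: Ptpn6 (SHP-1) at -0.09 and Ptpn11 (SHP-2) at 0.04.

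Cd44, the hyaluronan and osteopontin receptor, was bright in both arrays and near the shift. Its brightest probe set gave 2778 in osteoclasts and 3812 in macrophages, -0.02 relative to the shift and -0.46 as deposited. A second gave 2441 in osteoclasts and 3984 in macrophages (-0.27), and the _a_at probe set, named for its identifier, gave 1390 in osteoclasts and 1374 in macrophages (0.45). Of the 3, the _a_at probe set was thus the only one above the shift, and on the deposited scale it was level between the arrays (0.02). They averaged 0.05 ± 0.37 (SD over 3 probe sets), and the remaining probe set was below the floor in both arrays. Affymetrix gives the ending _a_at to probe sets matching several transcripts of 1 gene, and the brightest of Cd47 also has it. In both genes this probe set gave the highest difference of the 3 bright ones, while in Sirpa it was intermediate. None of the 17 probe sets had an identifier ending in _s_at or _x_at, the marks of sequence shared with other transcripts.

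Of 14 genes that encode CD44's ligands, cytoskeletal anchors and sheddases, or enzymes that make or degrade hyaluronan, 12 had a probe set and 10 were measured. Relative to the shift 2 were higher and 0 lower by 2-fold or more, with a median of 0.11, against 0.00 over all measured genes. Mmp14, a membrane metalloproteinase that can cleave CD44, gave 1843 in osteoclasts and 710 in macrophages (1.81), and its 3 probe sets lay between 1.81 and 2.67. Hyal2, a hyaluronidase, gave 237 in osteoclasts and 139 in macrophages (1.21). As deposited the median was -0.33, against -0.43 over all measured genes, and on that scale 1 gene was 2-fold higher and 2 were lower. The osteopontin gene was not analysed here.

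The sequence before the annotated start is shown for Cd200, which was high in osteoclasts, and for Cd44 and Cd47, which lay at the shift. The sequence source held no entry for Dcstamp, Ocstamp, Sirpa or Cd200r1, so the fusion receptors could not be set beside Cd200. Each run is the 250 bases upstream of the start, 5′ to 3′ on the gene's strand, from RefSeq on GRCm38.p6, at chr16:45409054-45409303 for Cd200, chr2:102901666-102901915 for Cd44 and chr16:49855404-49855653 for the more upstream annotated start of Cd47. Cd200 and Cd44 lie on the minus strand and Cd47 on the plus strand. Capitals mark matches on either strand to TGANTCA (AP-1), GGAAA (NFAT), GAGGAA (PU.1) and CATGTG (the E-box read by MITF), none of which overlap here.
Cd200: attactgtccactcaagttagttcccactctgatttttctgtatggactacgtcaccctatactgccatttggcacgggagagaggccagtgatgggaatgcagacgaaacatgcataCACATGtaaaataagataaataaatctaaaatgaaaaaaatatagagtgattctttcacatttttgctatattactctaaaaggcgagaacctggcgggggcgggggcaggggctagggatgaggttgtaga
Cd44: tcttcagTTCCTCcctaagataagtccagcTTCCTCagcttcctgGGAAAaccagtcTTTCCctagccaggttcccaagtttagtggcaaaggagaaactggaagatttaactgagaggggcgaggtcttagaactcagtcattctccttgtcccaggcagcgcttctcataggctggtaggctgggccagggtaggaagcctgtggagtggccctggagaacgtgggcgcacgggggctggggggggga
Cd47: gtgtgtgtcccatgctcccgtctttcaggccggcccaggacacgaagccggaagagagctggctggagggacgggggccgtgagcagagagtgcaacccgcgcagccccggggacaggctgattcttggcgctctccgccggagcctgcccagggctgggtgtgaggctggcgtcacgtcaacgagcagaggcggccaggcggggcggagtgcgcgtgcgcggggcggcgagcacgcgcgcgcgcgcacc

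The Cd200 run holds 1 match to the E-box, CACATG on the printed strand, beginning 132 bases before the start. The Cd44 run holds 2 matches to NFAT and 2 to PU.1, and the Cd47 run holds no match to these letters. Of 32851 windows of the same length in the table, 12.3% held the E-box, 55.6% the NFAT letters, 23.3% those of PU.1 and 6.7% those of AP-1. The runs also differ in base composition, with G and C at 42.4% for Cd200, 56.4% for Cd44 and 73.2% for Cd47, against a median of 52.4% over all windows. A match is a run of letters and shows no binding.

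Genes that act on or beside the fusion receptors were read in the same way. Of 10 transcription factors known to act on osteoclast or fusion receptor genes, all were measured, 3 were at least 2-fold higher and 1 was lower, with a median of 0.54. As deposited 2 were higher and 1 was lower, with a median of 0.10, against -0.43 over all measured genes. Nfatc1, the factor that switches on Dcstamp in response to RANKL in mice, gave 1207 in osteoclasts and 150 in macrophages (3.44), and its 5 probe sets lay between 1.14 and 3.44. Fosl2, an AP-1 member, gave 1665 in osteoclasts and 430 in macrophages (2.39, and 1.18 by its other probe set). Junb, also of AP-1, gave 538 in osteoclasts and 290 in macrophages (1.33). Tal1, a haematopoietic factor, gave 33.2 in osteoclasts and 139 in macrophages (-1.64). Proteins that bind DC-STAMP differed by less than 2-fold: Os9 was at -0.37 and Creb3 at 0.36. The DC-STAMP domain genes Dcst1 and Dcst2 were in the range of background, with Dcst1 at 15.8 in osteoclasts and 16.1 in macrophages and Dcst2 below the floor in both.

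Of 15 other genes of macrophage or osteoclast fusion, 13 had a probe set and all 13 were measured. Relative to the shift 3 were higher and 4 lower by 2-fold or more, with a median of -0.50, against 0.00 over all measured genes. As deposited 2 were higher and 6 lower, with a median of -0.94, against -0.43 over all measured genes. Mmp9, a gelatinase, gave 8767 in osteoclasts and 30.4 in macrophages (8.61). Its macrophage signal stood only just over the 28.2 of the receptor probe sets, so the size of this ratio depends on a value near background. Atp6v0d2, the proton pump subunit needed for osteoclast fusion in mice, gave 4068 in osteoclasts and 363 in macrophages (3.92). Sh3pxd2a, which encodes the invadosome scaffold Tks5, gave 508 in osteoclasts and 279 in macrophages (1.30). Lower were Cd36, a scavenger receptor, with 1900 in osteoclasts and 10752 in macrophages (-2.07), Adam8, a membrane protease, with 1944 in osteoclasts and 8090 in macrophages (-1.62), and Trem2, an activating receptor, with 685 in osteoclasts and 4201 in macrophages (-2.18). The other Trem2 probe set gave 0.18, so its direction differs between probe sets.

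**Figure D3:**
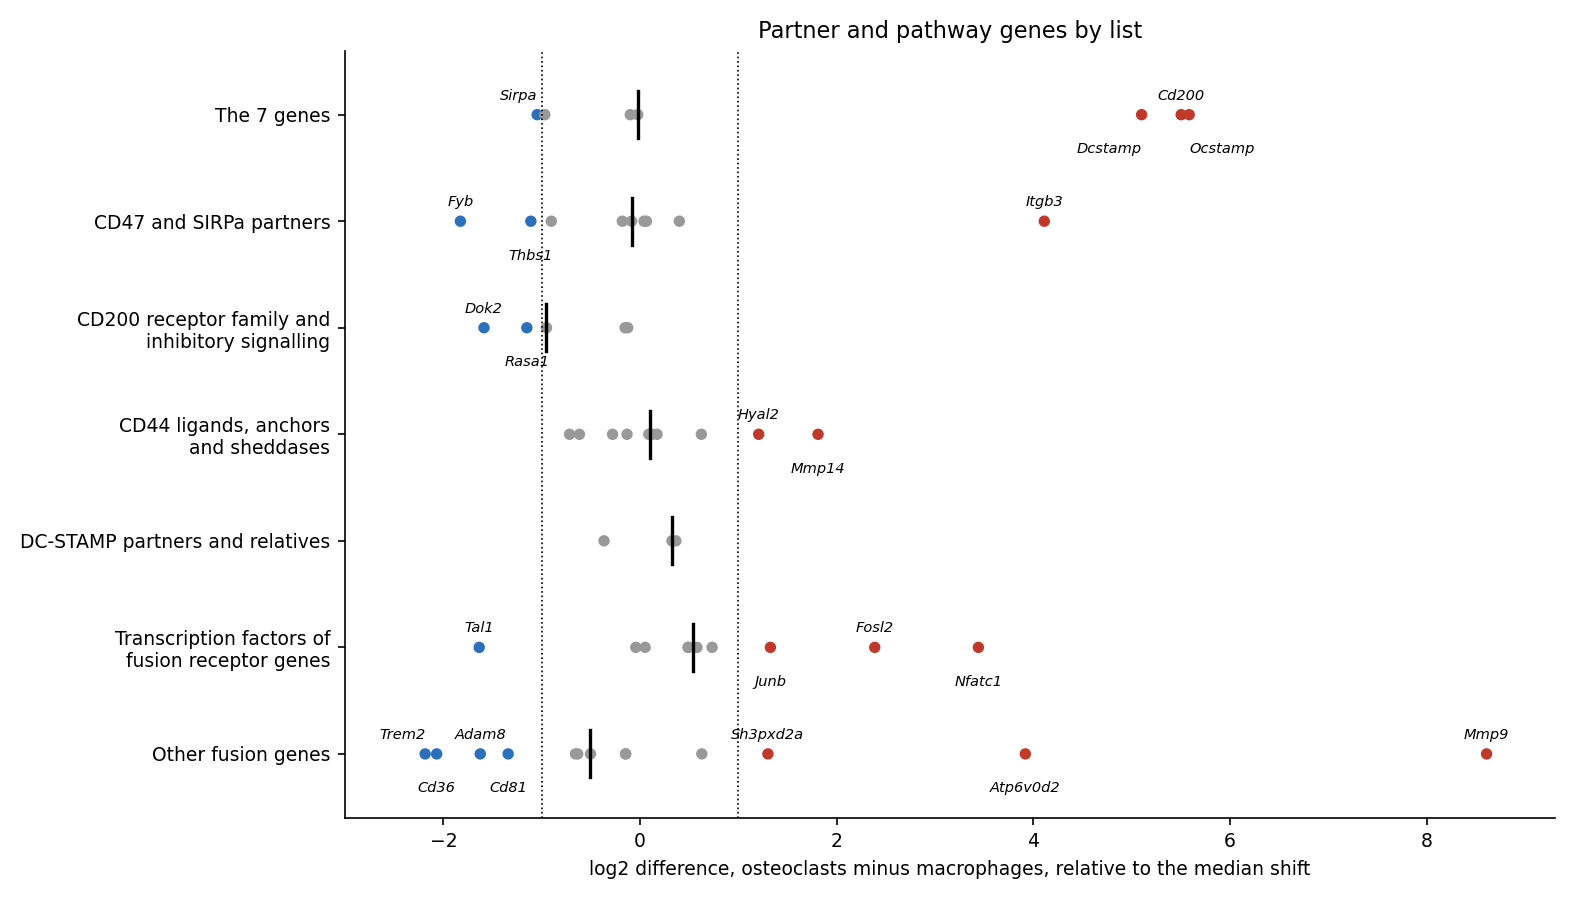
Log2 difference, osteoclasts minus macrophages relative to the median shift, of the 7 genes and of the measured genes of each list (1 point a gene; red at least 2-fold higher, blue at least 2-fold lower, grey between; black bar, list median; dotted lines, 2-fold). Genes past 2-fold are named: CD200 receptor signalling genes lie at or below 0 with a median of -0.95, transcription factors mostly above 0 with a median of 0.54.

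**Figure D4:**
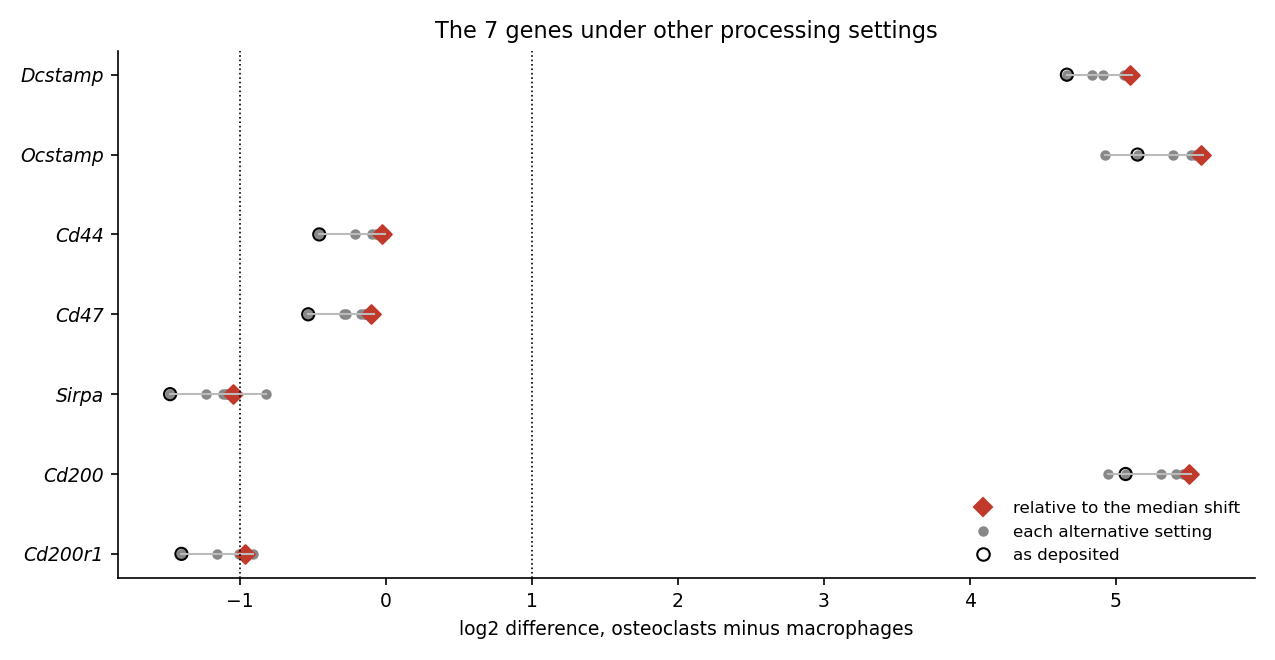
Log2 difference of each of the 7 genes, osteoclasts minus macrophages, relative to the median shift (diamond), under 10 other settings, 2 of which leave all 7 as they are (grey points) and as deposited (open circle), with dotted lines at 2-fold. Dcstamp, Ocstamp and Cd200 stay over 4 in every setting shown, with Dcstamp lowest at 4.67, Ocstamp at 4.93 and Cd200 at 4.95; the points of Sirpa and Cd200r1 fall on both sides of the lower 2-fold line.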

How the data were processed

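Gene expression was measured on 2 Affymetrix arrays, 1 per group, with groups taken from the sample titles. The deposited table holds 1 linear intensity per probe set and array; the sources used here do not name how the authors condensed, background-corrected and scaled probes; biotinylated cRNA was made from 1 µg of total RNA, per the labels' protocols. From 45101 probe sets 64 controls were left out, and 34945 of the rest carried 1 symbol in the platform annotation, which can be old; the Entrez identifiers of 34741 were found in RefSeq's GRCm38.p6 table, used for names, and 0 symbols differed. Values below the floor (40th percentile) were raised to it, log2 was taken, and the median difference of probe sets measured in both arrays was subtracted (Python 3.11.15, pandas 2.3.3). A gene was read from its probe set of highest mean log2 value. The members, lists and rules were chosen with earlier results of these data known. All member probe sets are reported; from lists of over 8 measured genes up to 3 past 2-fold in each direction are named, from shorter ones any. Steps were tested on simulated arrays. Scaling, floor, filter, pseudocount and probe set choice were varied. The number of arrays limits the precision, and no p-value was computed.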

Additional observations from a re-analysis of the deposited data

How the results depend on the processing

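With 1 array in each group no setting could be tested and no culture variation is covered; signal over background limits Ocstamp and Cd200, whose macrophage values were near it. No paired analysis was possible because each group has 1 array. Over 10 alternatives (no centring, median centring, trimmed mean, quantile normalization, a higher floor, no floor, both arrays measured, 16 added before log2, median of probe sets, _s_at and _x_at probe sets left out), Dcstamp lay between 4.67 and 5.12, Cd44 between -0.46 and -0.01, Cd47 between -0.53 and -0.08, Sirpa between -1.48 and -0.82 and Cd200r1 between -1.40 and -0.91, and no direction changed. Leaving out _s_at and _x_at probe sets and requiring both arrays measured cannot move a member; in the other 8 settings Sirpa passed 2-fold in 7 and Cd200r1 in 4. With 16 added, Ocstamp was at 4.93 and Cd200 at 4.95, as the sum raises dim values most. Members at least 2-fold lower numbered 2 as deposited, with median centring and with no floor, in place of 1; with the median of probe sets the 1 lower member was Cd200r1, not Sirpa. Members at least 2-fold higher numbered 3 throughout. Genes at least 2-fold higher among all measured numbered 409 as deposited, 2644 with no floor and 599 with 16 added, in place of 970, and lower genes 2390 as deposited and 2719 with no floor, in place of 954. Higher genes as deposited were thus a far smaller share of those called. With no floor, genes otherwise left out as unmeasured are counted too, so those counts come from a wider set of genes. Among the lists, CD47 and SIRPa partners had 1 lower gene by the median of probe sets, in place of 2, and CD44's list had 1 higher and 2 lower as deposited, and 1 lower with no floor, in place of 2 higher and 0 lower. The median of CD44's list ran from -0.33 to 0.12, so its sign depended on the setting. With _s_at and _x_at probe sets left out, the other fusion genes had 3 lower in place of 4, with a median of -0.15 in place of -0.50. The cause of the other changes was not tested.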
